A study of Homo sapiens with 2 samples.

Results

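The ATF4 arm of the integrated stress response was followed in PLC cells, a human liver cancer line, through 10 listed genes. They are the transcription factors ATF4, ATF3 and DDIT3, the amino acid synthesis enzymes ASNS, PHGDH and PSAT1, and the stress effectors TRIB3, CHAC1, SESN2 and DDIT4. The rule that picked the genes names them and uses no value, but they were picked with earlier results of these data known. Each was found in both expression tables under a single entry. They are 10 of 26225 gene names present in both tables, and 9 of them are among the 11115 names with a mean of at least 1 FPKM, called expressed here. FPKM counts fragments per kilobase of transcript, scaled to the total of mapped fragments in the library. The study compared PLC cells carrying an empty vector (EV, labelled as wild type) with PLC cells that overexpressed PRSS35, a secreted serine protease. Each had 1 library, and no further treatment is described in the sources used here. The paper states that its stable lines were made with lentivirus and selected with puromycin. With a single library on each side nothing can be tested over replicates, and the differences below are descriptions without p-values. Whether the cells were sequenced after serum starvation is not given in the sources used here, nor whether the stable PRSS35 line was 1 clone.

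In the integrated stress response, kinases that sense misfolded protein in the endoplasmic reticulum, lack of amino acids, double-stranded RNA or lack of heme phosphorylate the translation factor eIF2α. General translation then falls, while the ATF4 mRNA is translated more, so that the level of ATF4 protein is set largely after transcription. ATF4 binds as a dimer with other basic leucine zipper proteins to the C/EBP-ATF response element (CARE) and induces genes for amino acid synthesis and transport, for redox balance and, under prolonged stress, for cell death. Liver cells draw on this pathway when amino acids run short or when secretion loads the endoplasmic reticulum.

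The CARE sites that lie in the promoters of the members are shown because they are the sequence through which ATF4 acts on its targets. RefSeq promoters on GRCh38.p14, which run from 250 bases before to 50 bases after a start site, were available for all 10 members in 16 windows. The motif TGATGNAAN was searched on both strands. It was present in 3 members, ASNS, CHAC1 and ATF3, and in 4.45% of all 27305 genes with a promoter (3.61% of 35116 windows). The capitals mark the motif, which in CHAC1 is on the opposite strand. The stricter letters TTGCATCA lie inside the same CHAC1 site and occur in 1.08% of genes. The strand shown is that of the gene.
ASNS, minus strand, chr7:97872443-97872501, motif at -68 bases from the start: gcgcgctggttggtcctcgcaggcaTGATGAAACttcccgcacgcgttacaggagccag
CHAC1, plus strand, chr15:40953236-40953294, motif at -210 bases from the start: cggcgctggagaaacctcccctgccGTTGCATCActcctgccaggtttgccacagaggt
ATF3, plus strand, chr1:212565191-212565249, motif at -191 bases from the start: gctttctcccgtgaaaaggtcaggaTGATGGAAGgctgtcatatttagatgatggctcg
No match in the other 7 members says only that these letters are not in these windows, since the element can lie farther away or inside a gene. The 3 genes with a site did not share 1 pattern of change, as is given gene by gene below.

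The libraries were as labelled with regard to the transgene. The PRSS35 transcript itself stood at 0.643 FPKM in EV cells against 1836 FPKM in the overexpressing cells. All 8 hepatocyte genes checked (ALB, AFP, APOA1, APOB, TTR, SERPINA1, TF and HNF4A) were at 1 FPKM or more in both libraries, with ALB at 4.05 and 5.21 FPKM. The defining leukocyte genes PTPRC and CD3E were listed at 0 in both, and the summed level of 3 endothelial markers was 0.0373 FPKM in EV and 0.0307 FPKM in PRSS35. The summed level of 4 fibroblast markers was 1.75 and 2.03 FPKM, and that of the 4 leukocyte markers, nearly all of it LYZ and the locus that CD68 shares with MPDU1, was 391.3 and 381.6 FPKM. The tables hold no read counts. The value of a single fragment, inferred from the intervals of 625 annotated loci, differed between the libraries by a median factor of 1.00, so neither was deeper by this estimate. Each value comes with the interval that Cufflinks places around it. The interval covers error within 1 library and leaves out the variation between culture dishes. Its half-width was between 4.40% and 5.29% of the value for 7 members, 2.62% and 1.92% for DDIT4, and 15.8% and 16.3% for ATF3.

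In EV cells the 9 members above 0 spanned a 118.4-fold range per length. ATF4 was the most abundant at 383.1 FPKM, above 96.0% of expressed genes, followed by PHGDH at 287.2 FPKM. DDIT4 at 126.9 and CHAC1 at 124.7 FPKM came next with overlapping intervals, so these neighbours in the order were not told apart. ASNS (71.9 FPKM), PSAT1 (59.6 FPKM), TRIB3 (47.8 FPKM) and SESN2 (40.2 FPKM) followed, each apart from the next, while ATF3 was low at 3.23 FPKM and DDIT3 was listed at 0. The order of the genes was the same in PRSS35 cells. There DDIT4 stood apart from CHAC1, whereas TRIB3 and SESN2 now overlapped. In all, 8 of the 10 transcripts were thus at 40 FPKM or more in the control cells, which carried the empty vector.

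**Figure D1:**
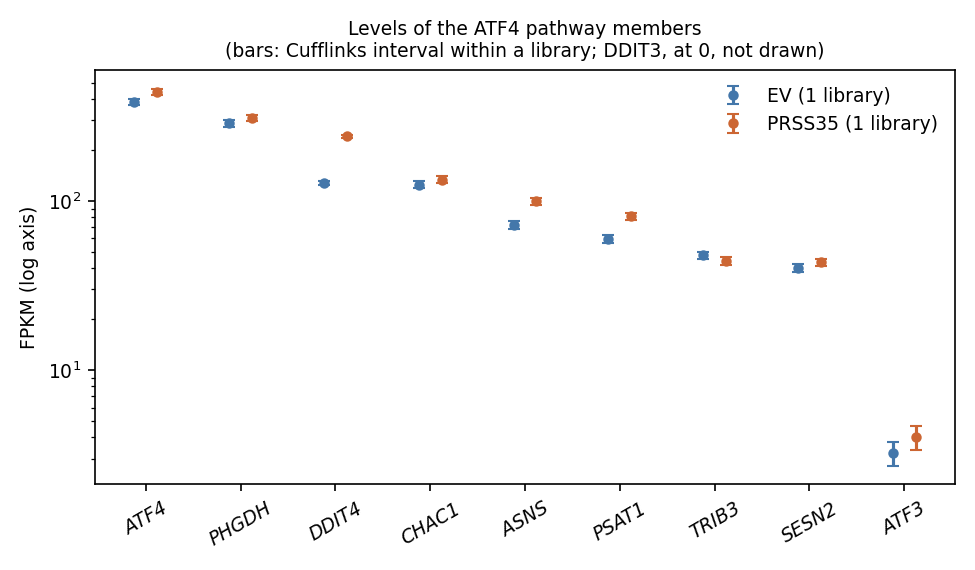
FPKM (log axis) of the 9 members above 0 in the EV library (blue) and the PRSS35 library (orange), ordered by the EV level. Points are single libraries and bars are Cufflinks intervals, so they show error within a library only. The intervals of DDIT4, ASNS, PSAT1 and ATF4 do not overlap, and those of the other 5 do.

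With PRSS35, the intervals of 4 members, DDIT4, ASNS, PSAT1 and ATF4, lay wholly above those of EV cells, and no member lay wholly below. Among all expressed genes, 25.1% lay wholly above and 15.5% wholly below. Among the 2855 genes of at least 40 FPKM, the level of the abundant members, these shares were 28.7% and 30.8%, so more than 1 in 2 abundant genes differed by this rule and it marks a small difference. No member was higher or lower by 2-fold on the log2(FPKM + 1) scale, where 2.73% of expressed genes were higher and 2.48% lower. At 1.5-fold only DDIT4 was higher and none was lower, against 5.23% and 4.27% of expressed genes. The median log2 change of the 9 expressed members was 0.20, with values between -0.11 and 0.92, and the median of all expressed genes was 0.06. For the 8 members of at least 40 FPKM the median was 0.16, while that of all genes at this level was 0.00 to 2 decimals.

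**Figure D2:**
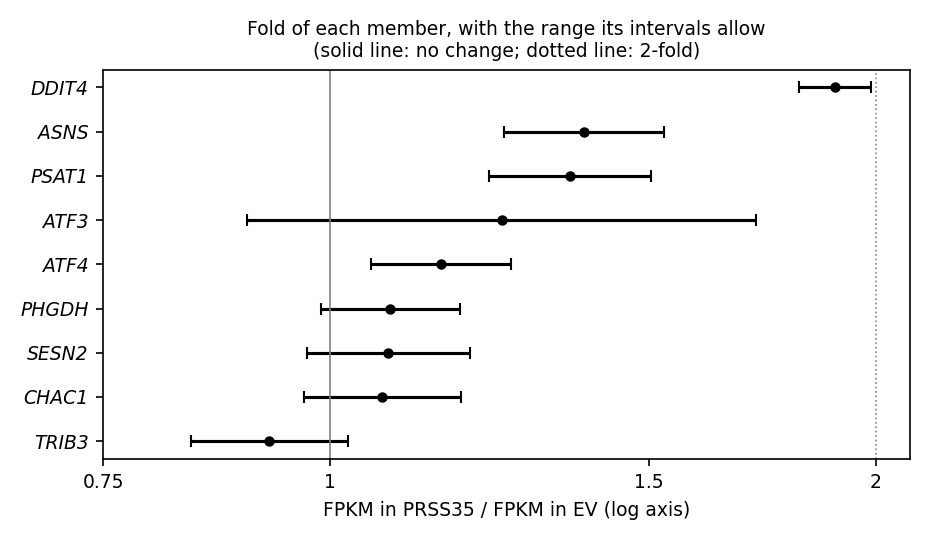
Ratio of FPKM in PRSS35 to FPKM in EV (log axis) for the 9 members above 0, with bars from the lowest to the highest ratio that the intervals of both libraries allow. DDIT4, at 1.90-fold, has a range from 1.82 to 1.99 that lies above the ranges of all the others drawn and short of the dotted 2-fold line.

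ATF4, the transcription factor that gives the pathway its output, is at 39916564 to 39918691 on chromosome 22 of hg19. Its transcript was at 383.1 FPKM (interval 366.0 to 400.2) in EV and 441.1 FPKM (interval 421.6 to 460.6) in PRSS35. PRSS35 was the higher library and the intervals did not overlap, with a ratio of 1.15-fold (range from the intervals 1.05 to 1.26). A log2 change of 0.20 was larger than that of 73.0% of expressed genes. ATF3, a stress-induced factor of the same basic leucine zipper class that ATF4 induces, is at 212738676 to 212794119 on chromosome 1. It was at 3.23 FPKM (interval 2.72 to 3.75) in EV and 4.03 FPKM (interval 3.37 to 4.68) in PRSS35. The intervals overlapped, and the ratio of 1.24-fold had a range from 0.900 to 1.72, so they did not tell the libraries apart for ATF3. Read as counting error alone, their width would correspond to about 160 fragments in EV and 151 in PRSS35. These are not measured counts, as the ATF3 model was assembled in both libraries and the depth estimate above rests on annotated loci.

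DDIT3 encodes CHOP, the partner factor that links a prolonged response to cell death. It is at 57910371 to 57914300 on the minus strand of chromosome 12 and was listed at 0 in both libraries. In these libraries 155 gene names were at 5 FPKM or more in one and at 0 in the other, while none of 80 cytosolic ribosomal protein genes was at 0. Whether an exact 0 such as that of DDIT3 is a failed estimate was not tested. DDIT3 was 1 of 258 names at 0 in both libraries whose locus was the annotated one in EV and had been assembled anew from the reads in PRSS35. Its locus shares 68 bases with the end of MARS, the methionyl-tRNA synthetase gene on the opposite strand, which was at 142.7 FPKM in EV and 162.2 FPKM in PRSS35. No fold was computed for DDIT3, and its level in these cells was not determined.

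**Figure D3:**
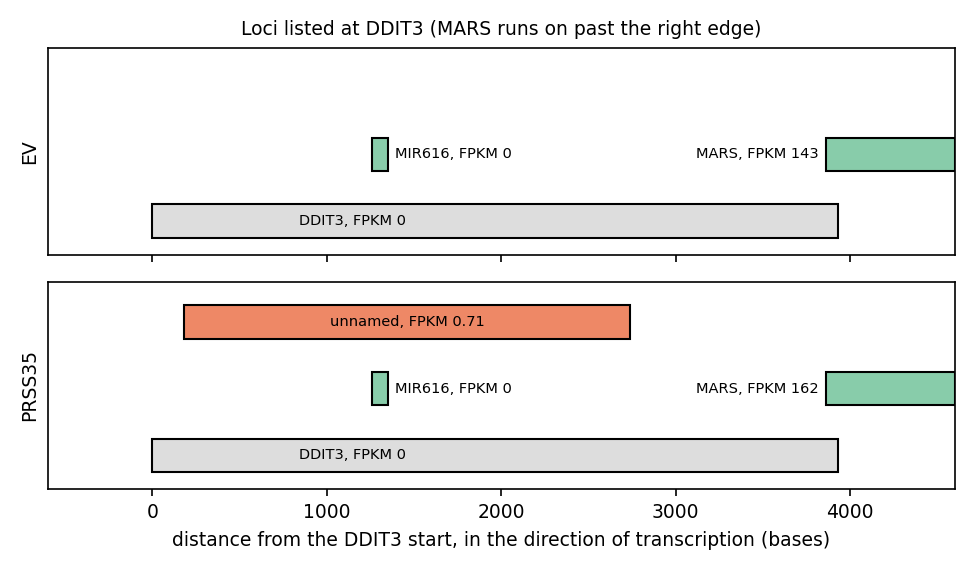
Loci listed at DDIT3 in each library, drawn by their distance in bases from the DDIT3 start in the direction of transcription, with their FPKM written beside them. DDIT3 and MIR616 are at 0 in both libraries, MARS overlaps the last 68 bases of DDIT3, and an unnamed locus of 0.710 FPKM appears inside DDIT3 in the PRSS35 library only.

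Among the enzymes, the asparagine and the later serine synthesis steps were higher with PRSS35. ASNS, asparagine synthetase, is at 97481429 to 97501854 on the minus strand of chromosome 7. It was at 71.9 FPKM (interval 68.1 to 75.6) in EV and 99.3 FPKM (interval 94.4 to 104.2) in PRSS35. The intervals were apart by a wide margin relative to their width, with a ratio of 1.38-fold (range 1.25 to 1.53). PSAT1, which makes phosphoserine, is on chromosome 9 from 80911991 to 80945009. It was at 59.6 FPKM (interval 56.5 to 62.8) in EV and 80.9 FPKM (interval 76.8 to 84.9) in PRSS35, or 1.36-fold higher (range 1.22 to 1.504). The log2 changes of ASNS and PSAT1, 0.46 and 0.43, were larger than those of 92.3% and 91.4% of expressed genes.

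PHGDH, the first enzyme of serine synthesis, is on chromosome 1 from 120254419 to 120286849. It was at 287.2 FPKM (interval 274.5 to 299.9) in EV and 310.0 FPKM (interval 296.4 to 323.7) in PRSS35. The intervals overlapped and the ratio was 1.08-fold (range 0.988 to 1.18), but with each library scaled to its FPKM over named loci PHGDH was wholly higher. PSPH, which completes the pathway and is not a member, was at 46.7 and 60.3 FPKM, 1.29-fold higher with PRSS35 (range 1.17 to 1.42). Per length, the first transcript thus exceeded the second by 4.82-fold in EV and by 3.83-fold in PRSS35, whereas the ratio of PSAT1 to PSPH was 1.28 and 1.34. The ranges of PHGDH and PSAT1 did not overlap.

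Among the effectors, DDIT4 differed and the other 3 overlapped. DDIT4, an inhibitor of mTORC1 signalling also called REDD1, is on chromosome 10 from 74033677 to 74035797. It was at 126.9 FPKM (interval 123.6 to 130.2) in EV and 241.0 FPKM (interval 236.4 to 245.7) in PRSS35. This was the largest difference among the members, 1.90-fold (range 1.82 to 1.99), and its log2 change of 0.92 exceeded that of 97.1% of expressed genes. The lower end of its range was above the upper end of every other expressed member. The ratio of DDIT4 to CHAC1 was 1.02 in EV and 1.81 in PRSS35.

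TRIB3, a pseudokinase that ATF4 induces and that feeds back on it, is on chromosome 20 from 361273 to 378203. It was the only member with a lower value in PRSS35 cells, at 47.8 FPKM (interval 45.4 to 50.1) in EV and 44.2 FPKM (interval 42.0 to 46.4) in PRSS35, but the intervals overlapped and the range of its ratio was 0.838 to 1.02. With upper quartile scaling its log2 change of -0.11 became -0.18 and its interval was wholly lower. CHAC1, which degrades glutathione, is on chromosome 15 from 41245636 to 41248717. It was at 124.7 FPKM (interval 118.5 to 131.0) and 133.3 FPKM (interval 126.7 to 139.9), and the groups overlapped. SESN2, a leucine sensor upstream of mTORC1, is on chromosome 1 from 28585963 to 28609002 and was at 40.2 FPKM (interval 38.1 to 42.3) and 43.3 FPKM (interval 41.1 to 45.5), again with overlap. The ratios of CHAC1 and SESN2 were 1.07-fold and 1.08-fold, with ranges of 0.967 to 1.18 and 0.972 to 1.19. SESN2, like PHGDH, was wholly higher when scaled over named loci, which also raised the median of all expressed genes.

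The changes of the members were therefore unequal. Of the genes with a CARE match in their windows, ASNS was higher, and CHAC1 and ATF3 overlapped. DDIT4, PSAT1 and ATF4, the other members that were higher, had no match there. The part of CARE sites in these differences was not tested. The gene family members that are not named as ATF4 targets here were low or listed at 0. CHAC2 was at 5.13 FPKM in EV and 3.85 FPKM in PRSS35 and TRIB1 at 3.29 and 3.30 FPKM, SESN1 and TRIB2 were below 1 FPKM in both libraries, and SESN3 and DDIT4L were listed at 0. As for DDIT3, the levels of SESN3 and DDIT4L were not determined. The 2 expressed paralogs, CHAC2 and TRIB1, had overlapping intervals, where 25.1% of all expressed genes were wholly higher and 15.5% wholly lower.

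**Figure D4:**
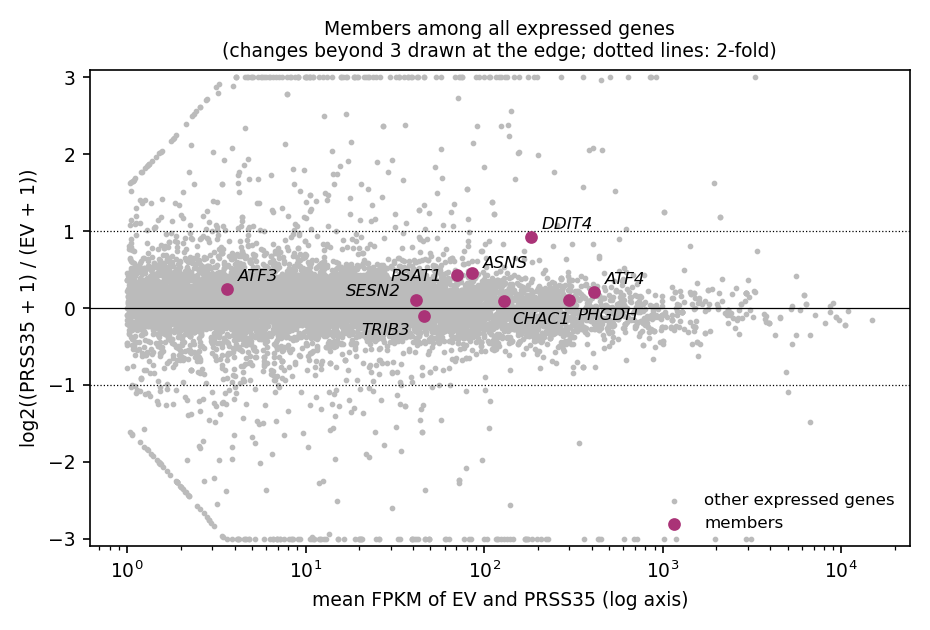
Log2 change between the libraries, with a pseudocount of 1 FPKM, against the mean FPKM (log axis) for all 11115 expressed genes (grey) and the 9 expressed members (purple). DDIT4 lies just under the dotted 2-fold line at 0.92, and the other 8 lie between -0.11 and 0.46.

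Cufflinks rebuilt many gene models from the reads of each library separately, and the models of the members differed in this respect. DDIT4 and TRIB3 kept the annotated model in both libraries, and 6 members (ATF4, ATF3, ASNS, CHAC1, SESN2 and PHGDH) had an assembled model in both. PSAT1 had an assembled model in EV only. Among 1048 expressed genes of that kind above 0 in both libraries, 16.6% were wholly higher and 20.4% wholly lower in PRSS35. Among the 2365 such genes annotated in both libraries, as DDIT4 is, the shares were 23.3% and 6.55%, and among the 6371 assembled in both they were 24.3% and 18.5%. Among the 1116 genes annotated in EV and assembled in PRSS35, a kind that holds no member, the shares were 37.9% and 5.47%. The part of the gene models in the differences of the members was not tested.

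Upstream of ATF4, the transcripts of the eIF2α kinases differed in level. The most abundant, EIF2AK1 (HRI, which senses heme and mitochondrial stress) was at 32.8 FPKM in EV and 46.4 FPKM in PRSS35, next to TRIB3 and SESN2, and 1.41-fold higher (range 1.29 to 1.55). EIF2AK3 (PERK, the kinase of the endoplasmic reticulum) was at 0.996 and 1.39 FPKM and EIF2AK2 (PKR, which binds double-stranded RNA) at 3.51 and 4.31 FPKM, each with intervals barely apart. EIF2AK4 (GCN2, which senses uncharged tRNA) was the one kinase with a lower interval in PRSS35, at 11.6 and 9.82 FPKM. The substrate EIF2S1 was at 8.90 and 8.40 FPKM, and the phosphatase subunits PPP1R15A, itself a target of the pathway, and PPP1R15B were at 12.5 and 13.0 FPKM and at 2.21 and 2.67 FPKM. The intervals of these 3 genes overlapped. These values are transcript levels and do not measure phosphorylation.

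Other genes of the pathway were read from lists of targets and partners. Together with the kinases and phosphatase subunits they hold 55 genes, 51 of them expressed. Of these 51, 25 had a wholly higher and 6 a wholly lower interval in PRSS35, none reached 2-fold on the log2(FPKM + 1) scale, and the median log2 change was 0.18. The shares of all expressed genes, to be read beside the interval counts of each list that follows, were 25.1% higher and 15.5% lower. Of 6 partners and co-regulators of ATF4, 4 were wholly higher and none lower. NUPR1, a stress-induced chromatin protein, was at 51.4 FPKM in EV and 81.4 FPKM in PRSS35 (1.58-fold, range 1.37 to 1.82), and JDP2 was at 2.09 and 3.51 FPKM. Of 9 expressed enzymes of amino acid and one-carbon metabolism, 5 were wholly higher and 1, SHMT2, was wholly lower. CTH, which makes cysteine, was at 2.73 and 5.82 FPKM, 2.13-fold higher by the plain ratio (range 1.59 to 2.89), and its log2 change with the pseudocount was 0.87. CTH had an assembled model in PRSS35 only, the kind with 37.9% wholly higher. ALDH18A1, the first enzyme of proline synthesis, was at 46.5 and 68.9 FPKM (1.48-fold, range 1.36 to 1.61).

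The amino acid transporters were split. Of 7 expressed, 4 were wholly higher and 2 wholly lower. The lower pair were SLC7A5, at 178.8 FPKM in EV and 141.6 FPKM in PRSS35, and its heavy chain SLC3A2, at 334.9 and 286.8 FPKM, which together form the carrier of large neutral amino acids. The model of SLC7A5 was assembled in PRSS35 only, the kind with 5.47% wholly lower. SLC1A4, a carrier of alanine and serine, was at 9.38 and 11.5 FPKM. Of 12 aminoacyl-tRNA synthetases, 6 were wholly higher and none lower, with the largest log2 changes in CARS (29.4 and 37.5 FPKM) and WARS (39.5 and 48.5 FPKM), the latter with a model assembled in PRSS35 only. Of 10 expressed secreted and death effectors, 3 were wholly higher and 2 lower, near the shares of all expressed genes. WIPI1, of autophagy, was at 7.47 and 12.5 FPKM, while BCL2L11, which encodes the death protein BIM, was at 2.71 and 1.52 FPKM. SLC3A2 was named after its value was seen, as were SHMT2 and the genes of this list that follow. GDF15, a secreted stress hormone, was abundant and overlapped (1276 and 1350 FPKM). FGF21, another stress hormone, was not among the expressed genes. It was listed at 0 in EV and at 0.210 FPKM (interval 0 to 0.419) in PRSS35, and the intervals overlapped. As for DDIT3, its level in EV cells was not determined.

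**Figure D5:**
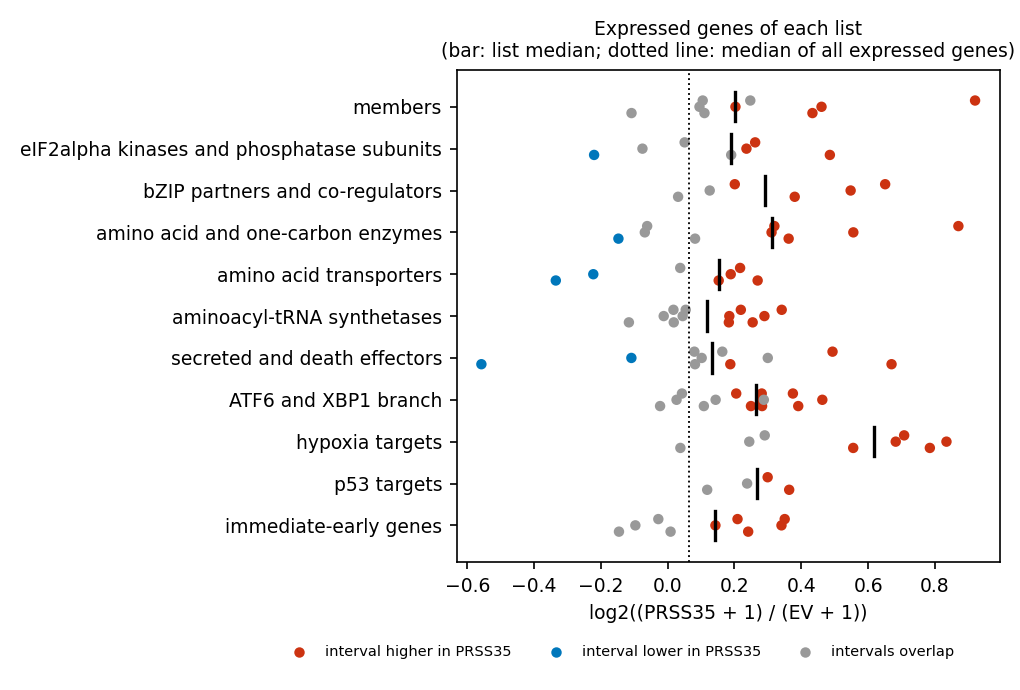
Log2 change (pseudocount 1 FPKM) of each expressed gene, by list. Red points have a wholly higher interval in PRSS35, blue points a wholly lower one, and grey points overlap. The black bars are list medians, 0.20 for the members and 0.62 for the hypoxia targets, and the dotted line is the median of all expressed genes, 0.06.

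A pair of neighbouring stress programs were read in the same libraries. Of 14 genes of the ATF6 and XBP1 branch, which serve folding in the endoplasmic reticulum, 8 were wholly higher and none lower, with a median log2 change of 0.26. CALR and PDIA4, a pair of folding factors, led this list with log2 changes of 0.46 and 0.39. The model of CALR was assembled in PRSS35 only, the kind with 37.9% wholly higher. DDIT4 is also known as a target of hypoxia-inducible factors, and of 8 expressed hypoxia targets 5 were wholly higher and none lower, with a median log2 change of 0.62, which was 0.41 with a pseudocount of 5 FPKM and 0.42 without a filter on low values. By log2 change PGK1 and NDRG1 led this list, at 292.8 FPKM in EV and 523.0 FPKM in PRSS35 and at 13.3 and 23.6 FPKM. Their ratios were 1.79-fold and 1.78-fold, where DDIT4 was at 1.90-fold. BNIP3 (1.03-fold), P4HA1 (1.23-fold) and PFKFB4 (1.27-fold), named after their values were seen, overlapped. NDRG1, like CTH, had an assembled model in PRSS35 only, as did PFKFB4 and ADM, another wholly higher gene of this list. The part of hypoxia in the DDIT4 difference was not tested.

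The DDIT4 promoter is shown because DDIT4 differed most and was without a CARE match. The letters ACGTG, the core of the hypoxia response element, were searched on both strands after the value of DDIT4 had been seen. They occur in DDIT4 once, at -125 bases from the start, and in 24.9% of all genes with a promoter, so a match is common. ATF4 was the one other member with a match, where both strands match in overlapping letters. The capitals mark the match.
DDIT4, plus strand, GRCh38.p14, chr10:72273774-72273828: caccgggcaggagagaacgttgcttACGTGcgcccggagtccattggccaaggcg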

How the data were processed

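RNA sequencing was done on PLC cells, with 1 library each for EV and PRSS35. Alignment to hg19 was made with TopHat2 2.1.0, and the authors deposited FPKM values from Cufflinks 2.2.1 with a lower and an upper bound for each locus. The labels name Cuffdiff 2.2.1, and dm6 beside hg19. The annotation release, the strand setting and the options are not given in the sources used here. No counts were available, so no count model was fitted. Starts were shifted to count from 1.

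FPKM and bounds were summed over loci of the same gene name. A locus naming several genes was counted for each, loci on alternate haplotypes and those with a failed status were left out, and genes with a mean of at least 1 FPKM were called expressed. Changes are log2((FPKM in PRSS35 + 1) / (FPKM in EV + 1)). Folds are plain ratios of FPKM, and their range divides the lower bound of one library by the upper bound of the other and the reverse. Fragments were inferred from the width of an interval, and 625 loci under 200 fragments within 0.01 of a whole number gave the relative depth. Intervals cover error within a library only.

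The members and all lists were chosen with earlier results of these data known. Named were all members, PRSS35, the kinases, EIF2S1 and the phosphatase subunits, PSPH, the paralogs, and for other lists the 2 expressed genes with the largest absolute change. For ERO1L the name ERO1A was used. The calls were run on simulated libraries with noise drawn from the interval widths. The simulation holds no variation between cultures, scaling difference or change of gene model, so it does not bear on these. Python 3.11.15, numpy 2.4.6, pandas 2.3.3 and matplotlib 3.10.9 were used.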

Additional observations from a re-analysis of the deposited data

Results flagged for a closer look

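An unnamed locus that Cufflinks assembled inside DDIT3 was listed at 0.710 FPKM (interval 0.506 to 0.915) in the PRSS35 library, in data that enter no comparison by gene name. It runs from 57911562 to 57914117 on chromosome 12 of hg19, is 2556 bases long and lies wholly within the DDIT3 locus. No unnamed locus was listed there in the EV library, and DDIT3 itself was at 0 in both. No other member had an unnamed locus overlapping its own. What the locus represents was not tested, and as each library was assembled separately, its absence from the EV table is not a measurement of 0.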

How the results depend on the processing

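The summed FPKM, unnamed loci included, was 2.47e+06 in EV and 1.51e+06 in PRSS35, and over named loci it was 856880 and 831520. Scaling each library to its summed FPKM, unnamed loci included, brought the median change over the expressed genes from 0.06 to 0.67 (log2). With it the median of the members was 0.82 in place of 0.20, 3 members were higher by 2-fold in place of 0, and 9 had a wholly higher interval in place of 4. TRIB3 was then at 0.59 rather than -0.11, and lay under the median of all genes either way. With genes that kept the annotated model in both libraries, which leaves DDIT4 and TRIB3, the median was 0.41 and 1 member was wholly higher. With the upper quartile scaling 1 member, TRIB3, was wholly lower. With the sum over named loci 6 members were wholly higher, PHGDH and SESN2 in addition, and the median of all expressed genes was 0.10. For these scalings the shares of all expressed genes past the same limits are not given here. The member counts under them are therefore not set against those of all genes. At 1.5-fold 1 member was higher. No other alternative changed a count of the members by 1.5 times or more or their median beyond the width of their intervals, and the median of the members was between 0.13 and 0.82 over all of them. The log2 change of DDIT4 was between 0.85 and 1.63, that of ASNS between 0.39 and 1.16 and that of PSAT1 between 0.37 and 1.13. The median of the kinases and phosphatase subunits, 0.19, was -0.01 with genes of at least 5 FPKM, which leaves EIF2AK1, EIF2AK4, EIF2S1 and PPP1R15A. That of the transporters, 0.15, was -0.22 with genes of at least 40 FPKM, which leaves only SLC3A2, SLC7A5 and SLC1A5. That filter brought the secreted and death effectors from 0.13 to -0.01, with only GDF15 and SQSTM1 left. It brought the hypoxia targets from 0.62 to 0.76, with only PGK1 and CA9 left. Medians over so few genes do not describe the lists. The hypoxia targets were at 0.41 with a pseudocount of 5 FPKM and 0.42 without a filter. The amino acid enzymes went from 0.31 to 0.20 without a filter and with genes of at least 5 FPKM. With genes annotated in both libraries the partners and co-regulators went from 0.29 to 0.55 and the effectors from 0.13 to 0.58. DDIT4 was at 0.85 with upper quartile scaling and at 0.86 when centred on the median change. In all, 37 of the values of single members and list medians moved, 20 of them with the scaling to all loci, and 195 did not. The filter at 40 FPKM and the keeping of alternate haplotypes were chosen after seeing the data. Why the sums differed between the libraries, and why values moved with the other alternatives, was not tested. No paired analysis was possible because each group has 1 library, and for the same reason no replicate could be left out.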

Other observations

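Lists of genes that share inducers with the members gave further values. The interval counts below are to be read beside the shares of all expressed genes, 25.1% wholly higher and 15.5% wholly lower. Of 4 expressed p53 targets, which include inducers of cell cycle arrest, 2 were wholly higher in PRSS35 and none lower. These were BTG2, at 1.36 FPKM in EV and 2.03 FPKM in PRSS35, and CDKN1A, at 8.70 and 10.9 FPKM. The median log2 change of the p53 targets, 0.27, was 0.12 without a filter on low values and 0.14 with a pseudocount of 5 FPKM. Of 9 expressed immediate-early genes, the class of rapid serum and stress responses to which ATF3 also belongs, 5 were wholly higher and none lower. JUN was at 5.37 and 7.13 FPKM and DUSP1, a phosphatase of MAP kinases, at 101.1 and 128.3 FPKM. The median log2 change of the immediate-early genes, 0.14, was 0.01 with genes that kept the annotated model in both libraries. Of the 8 hepatocyte genes 5 were wholly higher and 1, APOA1, wholly lower. Their summed level was 3412 FPKM in EV and 5174 FPKM in PRSS35, most of it SERPINA1 (2528 and 4239 FPKM). SERPINA1 and APOA1 were named after their values were seen.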
